A study of Mus musculus with 4 samples.

Results

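The 10 genes of lipid peroxidation, ferroptosis and iron handling followed on 4 gene expression arrays of mouse 3D-retinas were Ptgs2, Gpx4, Aifm2, Acsl4, Lpcat3, Tfrc, Fth1, Ftl1, Ncoa4 and Slc40a1. They were taken by gene name from the array annotation, and all 10 were on the array among 35699 genes, with 14 of the 55681 gene probes. Of these genes 7 had 1 probe each, 2 (Aifm2 and Ftl1) had 2, and 1 (Tfrc) had 3. The tissue was grown in floating culture from induced pluripotent stem cells of Nrl-GFP mice, in which a rod gene's promoter drives a green fluorescent protein, and structures with bright fluorescence were picked by hand. On differentiation day 23 they received 5 µM 4-hydroxytamoxifen (4-OHT, a metabolite of tamoxifen that binds estrogen receptors) and vitamin E, a lipid-soluble antioxidant, at 400 µM; the same dose of 4-OHT and lutein, a carotenoid of the macula, at 200 nM; that dose of 4-OHT without either; or ethanol, the vehicle. RNA came from day 25, given in the labels as the onset of photoreceptor degeneration, and from a pool of 24 3D-retinas per group.

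Each group was thus 1 array, so no difference here has a replicate check or a p-value, and values are sizes between these 4 pools. Signals are given as multiples of the array's 75th percentile over gene spots. Differences are on the log2 scale, and a 2-fold difference was the size used for counting. On the 4 arrays 51.3% to 54.5% of gene spots were well above background. Spots of 1 probe on an array vary, and for probes with 10 spots this gives log2 differences between arrays an SD of 0.16 to 0.17 (the spot SD below), a measure of spot noise that leaves out how cultures vary. The summed signal of 8 rod markers was 792 with 4-OHT and vitamin E, 605 with 4-OHT and lutein, 481 with 4-OHT and 959 with vehicle, and all 8 were well above background on each array. In pooled tissue, fewer cells of a type and less RNA per cell cannot be told apart, and the part of this shift in the values below was not tested.

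Ferroptosis is a form of cell death driven by iron-dependent peroxidation of polyunsaturated membrane lipids. Acsl4 and Lpcat3 place polyunsaturated fatty acids into phospholipids, Gpx4 reduces the resulting lipid hydroperoxides with glutathione, and Aifm2 keeps coenzyme Q in its reduced, radical-trapping form. Tfrc brings transferrin-bound iron into the cell, ferritin (Fth1 and Ftl1) stores it, Ncoa4 carries ferritin to the lysosome for iron release, and Slc40a1 (ferroportin) exports iron. Ptgs2, the inducible cyclooxygenase, is widely used as a transcript marker of cells undergoing ferroptosis, and it is also induced by inflammatory and growth factor signals.

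The letters of the probes decide which transcripts each value can come from. Those of Gpx4, 1 probe of Aifm2, 1 of Tfrc and the dimmer of Ftl1 are shown. The first 3 genes are of lipid repair and iron uptake, and the Ftl1 probe bears on what its signal measures. Each has at least 1 forward frame without a stop codon, as do probes of other members. The Tfrc probe that stands for the gene has 0 such frames and is not the one shown. Whether the letters are coding sequence was not tested. Coordinates are those of the array's mm9 annotation.
Gpx4 (chr10:79518783-79518842, plus strand): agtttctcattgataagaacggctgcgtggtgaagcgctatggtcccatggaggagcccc
Aifm2 (chr10:61198346-61198405, plus strand): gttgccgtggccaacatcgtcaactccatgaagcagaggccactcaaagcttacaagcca
Tfrc (no position in the annotation): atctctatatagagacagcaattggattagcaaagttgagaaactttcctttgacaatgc
Ftl1 (chr17:6132140-6132198, minus strand): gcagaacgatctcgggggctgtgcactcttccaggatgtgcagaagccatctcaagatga
Both Ftl1 probes were placed on chromosome 17, whereas RefSeq (GRCm38.p6) places the gene on chromosome 7. The Ncoa4 probe was placed on chromosome 12 (chr12:120502595-120502654), whereas RefSeq has that gene on chromosome 14. For these 2 genes, signal from near-identical copies elsewhere in the genome cannot be told apart from the gene's own.

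Ptgs2 was the member that differed most between arrays. Its probe (chr1:151954744-151954803, plus strand) gave a signal of 0.0136 with 4-OHT and vitamin E, 0.115 with 4-OHT and lutein, 0.174 with 4-OHT and 0.0126 with vehicle. It was well above background on the lutein and 4-OHT arrays, and not well above background on the vitamin E and vehicle arrays. A difference against an array where a probe was not well above background is a bound, and is written as at least N-fold. The bound is taken against the lowest signal well above background on that array, or the probe's own signal where that was higher. Ptgs2 was at least 3.38-fold higher with 4-OHT than with vehicle, and at least 4.05-fold lower with 4-OHT and vitamin E than with 4-OHT. With 4-OHT and lutein it was 1.51-fold lower than with 4-OHT (log2 difference -0.60), and at least 2.24-fold higher than with vehicle. Vitamin E and vehicle give no fold, because Ptgs2 was well above background on neither array. With normexp background correction the bound on the log2 difference was 0.91 for 4-OHT against vehicle and 0.60 for 4-OHT and lutein against vehicle. Both bounds were short of 2-fold, which does not show that the differences themselves were.

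The 10 spots of the Ptgs2 probe show the same split within arrays. The spots ranged from 0.00923 to 0.0235 with 4-OHT and vitamin E, from 0.0924 to 0.156 with 4-OHT and lutein, from 0.161 to 0.198 with 4-OHT, and from 0.0110 to 0.0141 with vehicle. The spots of the 4-OHT array lay above all spots used on each other array, and those of the lutein array lay between them and the vehicle and vitamin E arrays. With 4-OHT 10 of 10 spots were well above background, and with lutein 9 of 9 used. With vitamin E and with vehicle 0 of 9 used were, 1 spot having been left out as an outlier on each of these 3 arrays; the spot left out on the vitamin E array was itself well above background. The Ptgs2 signal was low even where it was detected.

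**Figure D1:**
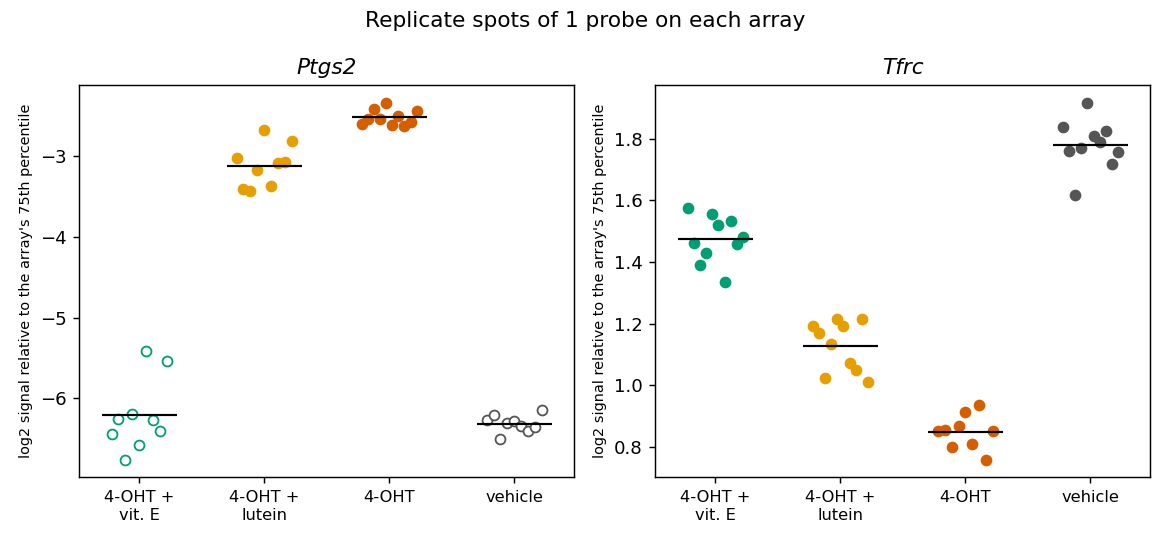
Each point is 1 spot of the Ptgs2 probe (left panel) or of the Tfrc probe that stands for that gene (right panel), as log2 of the signal relative to the array's 75th percentile, for 4-OHT with vitamin E, 4-OHT with lutein, 4-OHT and vehicle. Filled points are well above background, open points are not, and black lines are means over spots. The Ptgs2 spots of the vitamin E and vehicle arrays are open and lie at or below 0.0235 times the percentile, while the Tfrc spots of the 4 arrays do not overlap.

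Cells of the immune lineage can also express Ptgs2. Of 8 microglial markers, on none of the 4 arrays did Aif1, Cx3cr1, C1qa or P2ry12 stand well above background. The summed signal of the 8 was 12.6 with 4-OHT and vitamin E, 16.8 with 4-OHT and lutein, 30.8 with 4-OHT and 12.6 with vehicle. Most of that sum was Itgam, at 10.4 with 4-OHT and vitamin E, 14.2 with 4-OHT and lutein, 28.2 with 4-OHT and 10.02 with vehicle. Csf1r, the next in signal, read 2.02 with 4-OHT and vitamin E, 2.27 with 4-OHT and lutein, 2.42 with 4-OHT and 2.26 with vehicle. Tmem119 went the other way, at 0.0647 with 4-OHT and vitamin E, 0.209 with 4-OHT and lutein, 0.0279 with 4-OHT, where it was not well above background, and 0.192 with vehicle. The part of this signal in the Ptgs2 values was not tested.

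The Ptgs2 promoter is shown because this gene alone among the 10 passed 2-fold. The bases before the transcript start (RefSeq, GRCm38.p6, chr1:150099781-150100030, plus strand) follow, with the core letters of the antioxidant response element, the NRF2 binding element, in capitals.
Ptgs2 promoter: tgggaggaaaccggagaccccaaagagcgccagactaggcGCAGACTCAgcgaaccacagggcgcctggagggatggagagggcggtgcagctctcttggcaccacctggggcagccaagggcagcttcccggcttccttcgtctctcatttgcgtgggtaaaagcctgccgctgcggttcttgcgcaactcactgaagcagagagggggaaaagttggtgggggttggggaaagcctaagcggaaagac
The core was searched as TGANNNNGC on both strands in windows of 250 bases before to 50 after each start, and it lies here on the minus strand, 210 bases before the start. A window was found for 9 of the 10 genes. Some genes had more than 1 window. The same core occurred in 3 of the 9 genes (Ptgs2, Acsl4 and Ncoa4). Counted by window, it occurred in 4 of the 16 windows of the 9 genes and in 41.3% of all 32851 promoters. No window of the 9 genes held TGANTCA (AP-1, in 7.81% of all promoters), TGACGTCA (CRE, in 1.79%), TTGCATCA (C/EBP-ATF element, in 0.895%) or the NF-kappaB motif (in 0.411%), each searched on both strands. A match is a description of letters, not of a bound site.

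For 4-OHT against vehicle, Ptgs2 was the only 1 of the 10 genes past 2-fold higher, and 0 were past 2-fold lower. Over all 22061 genes measured, 7.74% were past 2-fold higher and 3.15% lower. Of the 10, 8 lay below 0 and 2 (Ptgs2 and Ftl1) above it, where 54.8% of all genes and 60.4% of protein-coding genes lay below 0. The median difference of the 10 was -0.35, against -0.06 over all genes and -0.13 over protein-coding genes. Without Ptgs2, 8 of 9 members differed by more than the spot SD, as did 73.0% of all genes.

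**Figure D2:**
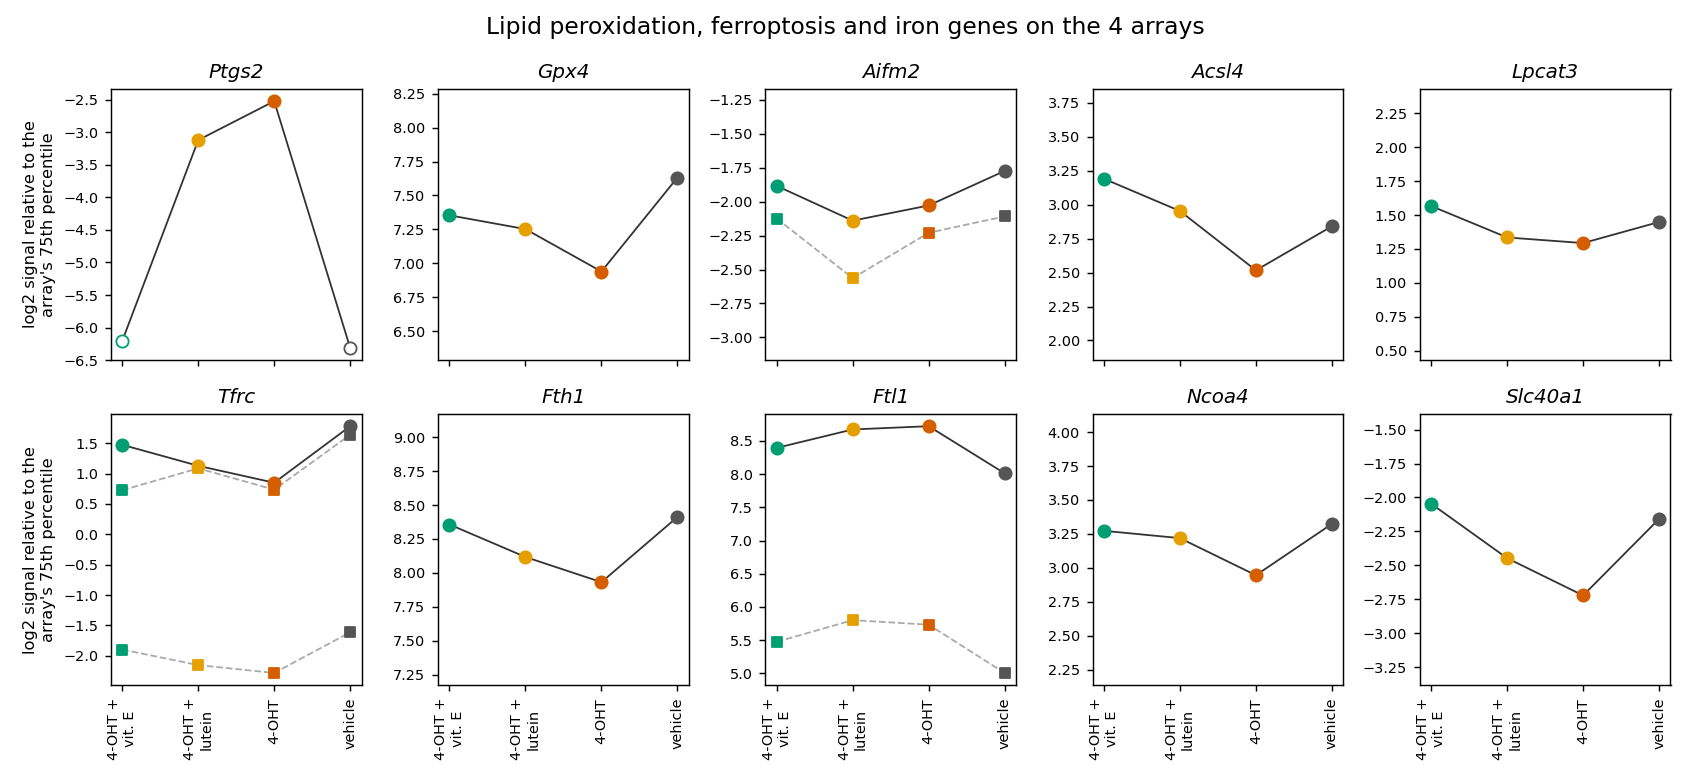
Each panel is 1 gene, with log2 signal relative to the array's 75th percentile for 4-OHT with vitamin E, 4-OHT with lutein, 4-OHT and vehicle. Circles joined by solid lines are the probe that stands for the gene, squares with dashed lines are other probes, and open symbols are not well above background. The vertical scale differs between panels; 7 of the 9 genes other than Ptgs2 have their lowest point on the 4-OHT array.

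Of the 2 members that counter lipid peroxidation, Gpx4 and Aifm2, Gpx4 differed more between 4-OHT and vehicle. Its signal was 164 with 4-OHT and vitamin E, 152 with 4-OHT and lutein, 123 with 4-OHT and 198 with vehicle. It was thus 1.62-fold lower with 4-OHT than with vehicle (log2 difference -0.69), and 9.34% of all genes lay as far below 0. Against 4-OHT it was 0.41 higher with vitamin E and 0.31 higher with lutein on the log2 scale, and both stayed below vehicle, by -0.28 and -0.38. Aifm2 moved less. Its brighter probe read 0.271 with 4-OHT and vitamin E, 0.227 with 4-OHT and lutein, 0.245 with 4-OHT and 0.292 with vehicle, and its other probe (chr10:61200882-61200941) read 0.229, 0.169, 0.213 and 0.232 on the same arrays. The differences for 4-OHT against vehicle were -0.25 and -0.12, the second within the spot SD. Both Aifm2 probes were lowest on the lutein array, by -0.11 and -0.33 against 4-OHT.

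The genes that load polyunsaturated lipids differed little between 4-OHT and vehicle. Acsl4 (chrX:138752591-138752650, minus strand) had a signal of 9.14 with 4-OHT and vitamin E, 7.75 with 4-OHT and lutein, 5.72 with 4-OHT and 7.17 with vehicle. Its log2 difference was -0.32 for 4-OHT against vehicle, 0.67 for vitamin E against 4-OHT and 0.44 for lutein against 4-OHT. Under spike-in scaling with 8 spike-in probes the second was 1.02, past 2-fold, but it fell short of 2-fold with 7. Acsl4 was highest on the vitamin E array, 0.35 above vehicle. Lpcat3, whose probe has no position in the annotation, read 2.96 with 4-OHT and vitamin E, 2.52 with 4-OHT and lutein, 2.45 with 4-OHT and 2.73 with vehicle. Its difference between 4-OHT and vehicle, -0.16, was within the spot SD.

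Tfrc was the lowest of the 10 for 4-OHT against vehicle. The probe that stands for it (chr16:32632255-32632314, plus strand, 10 spots) had a signal of 2.78 with 4-OHT and vitamin E, 2.19 with 4-OHT and lutein, 1.80 with 4-OHT and 3.43 with vehicle. Its spots ranged from 2.52 to 2.98 with 4-OHT and vitamin E, from 2.01 to 2.32 with 4-OHT and lutein, from 1.69 to 1.91 with 4-OHT and from 3.07 to 3.77 with vehicle, so that no 2 arrays overlapped. Tfrc was 1.91-fold lower with 4-OHT than with vehicle, and 3.97% of all genes lay as far below 0. Under spike-in scaling the log2 difference was -1.18, past 2-fold. The other 2 probes gave differences of -0.90 and -0.67 for the same comparison. For vitamin E against 4-OHT the 3 probes disagreed: the first gave 0.62, the probe at chr16:32620470-32620529 gave -0.01, and the probe without a position gave 0.38. That second probe read 1.65 with 4-OHT and vitamin E, 2.12 with 4-OHT and lutein, 1.66 with 4-OHT and 3.12 with vehicle, and so showed no return under vitamin E.

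The ferritin subunits lay on opposite sides of 0. Fth1, the heavy chain with ferroxidase activity (chr19:10059485-10059544, plus strand), had a signal of 328 with 4-OHT and vitamin E, 278 with 4-OHT and lutein, 244 with 4-OHT and 341 with vehicle. Ftl1, the light chain, had a signal of 337 with 4-OHT and vitamin E, 408 with 4-OHT and lutein, 422 with 4-OHT and 258 with vehicle at its brighter probe (chr17:6131686-6131745, minus strand). The log2 difference for 4-OHT against vehicle was -0.48 for Fth1 and 0.71 for Ftl1. The dimmer Ftl1 probe gave 0.73, from signals of 44.4 with 4-OHT and vitamin E, 55.7 with 4-OHT and lutein, 53.1 with 4-OHT and 32.1 with vehicle. The ratio of Ftl1 to Fth1 within an array, which scaling between arrays cannot move, differed between 4-OHT and vehicle by 1.19 with the brighter and 1.21 with the dimmer probe. For vitamin E against 4-OHT that ratio differed by -0.75 and -0.68, and for lutein against 4-OHT by -0.23 and -0.12.

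An unnamed probe on another chromosome had values like those of Ftl1. It shares 22 letters in a row with the brighter Ftl1 probe and is annotated at chr15:39139871-39139930 on the minus strand. Its signal was 274 with 4-OHT and vitamin E, 341 with 4-OHT and lutein, 331 with 4-OHT and 193 with vehicle, a difference of 0.78 for 4-OHT against vehicle. The share of the Ftl1 signal that comes from such copies was not tested.

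Ncoa4, the ferritin carrier, and Slc40a1, the exporter, did not pass 2-fold for 4-OHT against vehicle. Ncoa4 had a signal of 9.66 with 4-OHT and vitamin E, 9.31 with 4-OHT and lutein, 7.70 with 4-OHT and 10.01 with vehicle, with a difference of -0.38 for 4-OHT against vehicle. Slc40a1 (chr1:45965255-45965314, minus strand) had a signal of 0.242 with 4-OHT and vitamin E, 0.183 with 4-OHT and lutein, 0.152 with 4-OHT and 0.224 with vehicle. Its difference was -0.56 for 4-OHT against vehicle and 0.68 for vitamin E against 4-OHT. With normexp background correction these were -0.28 and 0.32, and under spike-in scaling the second was 1.02, past 2-fold.

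The comparisons of vitamin E and of lutein with 4-OHT share the 4-OHT array with the comparison above, so that opposite signs between them are not independent, and each is given by its own values. For vitamin E against 4-OHT, 0 of the 10 genes were past 2-fold higher and 1 (Ptgs2) lower, where 1.48% of all 22130 genes were higher and 8.8% lower. Of the members 8 lay above 0, as did 56.9% of all and 65.8% of protein-coding genes, and the median of the 10 was 0.37, against 0.08 and 0.17. The 2 below 0 were Ptgs2 and Ftl1. The -0.33 of Ftl1 turned to 0.02 under spike-in scaling with 8 spike-in probes and stayed below 0 with 7. For lutein against 4-OHT, 0 of the 10 were past 2-fold higher and 0 lower, where 1.15% of all 21974 genes were higher and 3.83% lower. Of the members 7 lay above 0, a share near the 61.0% of all and 68.9% of protein-coding genes, and the median was 0.23, against 0.08 and 0.13.

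**Figure D3:**
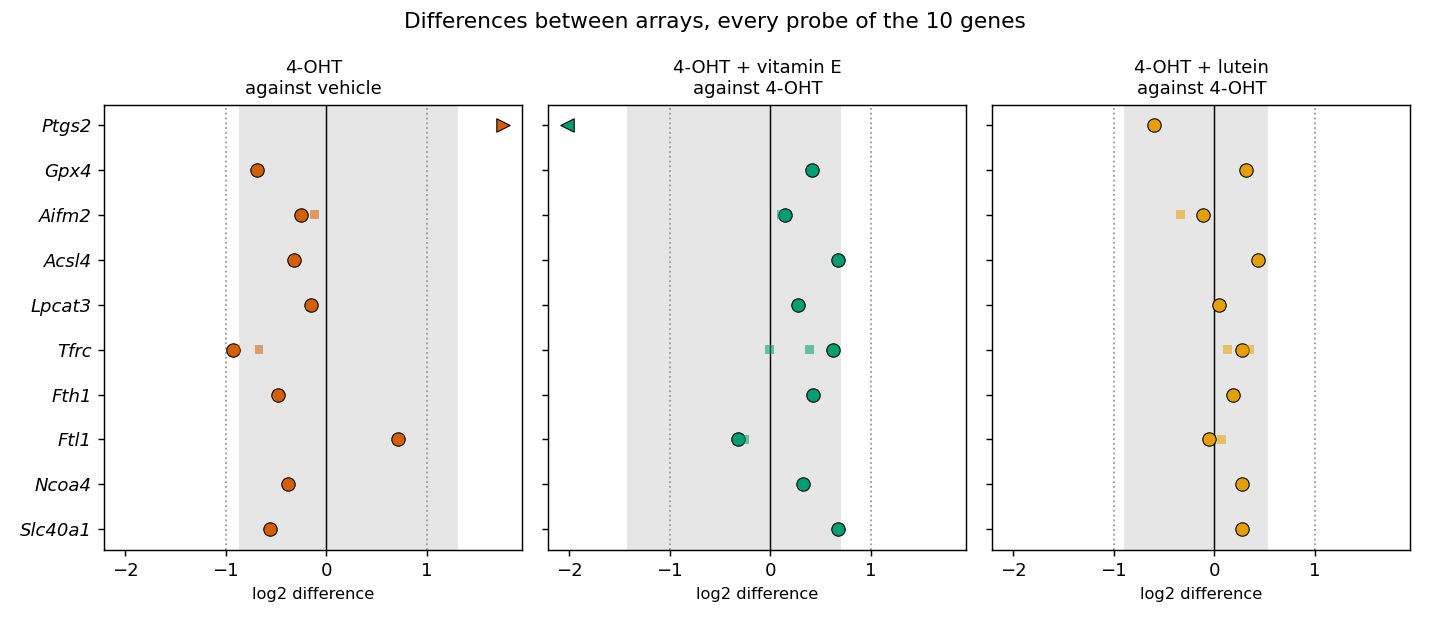
Points are log2 differences of the 10 genes for 4-OHT against vehicle, 4-OHT with vitamin E against 4-OHT, and 4-OHT with lutein against 4-OHT. Outlined circles are the probe that stands for the gene, small squares are other probes, triangles are bounds, dotted lines mark 2-fold, and the grey band spans the 5th to 95th percentile of all genes. Ptgs2 alone lies past a dotted line, at a bound of 1.76 in the left panel and of -2.02 in the middle panel.

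With 4-OHT and vitamin E, 9 members could be measured against vehicle, and 0 of them were past 2-fold. Over all 21345 genes 1.09% were higher and 1.98% lower. At the probes that stand for the genes, differences ran from -0.31 for Tfrc to 0.38 for Ftl1. The Tfrc probe at chr16:32620470-32620529 gave -0.91 and the one without a position -0.28, while the dimmer Ftl1 probe gave 0.47. With 4-OHT and lutein, 1 of the 10 (Ptgs2) was past 2-fold higher, where 3.44% of all 21338 genes were higher and 1.49% lower. The others ranged from -0.65 for Tfrc to 0.66 for Ftl1 (0.80 at its dimmer probe), and the median of the 10 was -0.20. Of the 9 members other than Ptgs2, the 4-OHT array was lowest for 7, vehicle for Ftl1 and lutein for Aifm2.

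Other genes of these pathways were read from 11 lists of 152 genes, all on the array. The lists were chosen with earlier results of these data known. Their shares beside those of all genes are thus descriptions, not tests. For 4-OHT against vehicle 14 of 133 measured were past 2-fold higher and 5 lower (10.5% and 3.76%), against the 7.74% and 3.15% of all genes. For vitamin E against 4-OHT 5 of 135 were higher and 13 lower (3.70% and 9.63%), against 1.48% and 8.8% of all genes. For lutein against 4-OHT 0 of 132 were higher and 1 lower, against 1.15% and 3.83% of all genes.

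Of genes of glutathione and cystine supply, 4 of 9 measured were past 2-fold higher with 4-OHT than with vehicle. The share over all genes was 7.74%. Slc7a11, the cystine transporter that feeds glutathione synthesis, had a signal of 0.0144 with 4-OHT and vitamin E, 0.234 with 4-OHT and lutein, 0.257 with 4-OHT and 0.0117 with vehicle. On the vitamin E and vehicle arrays it did not stand well above background. It was at least 5.00-fold higher with 4-OHT than with vehicle and at least 5.98-fold lower on the vitamin E than on the 4-OHT array, and differed by -0.14 between lutein and 4-OHT. Slc3a2, its partner chain, read 40.7 with 4-OHT and vitamin E, 101 with 4-OHT and lutein, 104 with 4-OHT and 35.5 with vehicle, a difference of 1.54 for 4-OHT against vehicle. Chac1, which degrades glutathione, differed by 2.87 for 4-OHT against vehicle and -2.53 for vitamin E against 4-OHT, and Cth, which makes cysteine, by 2.56 and -2.13. On the lutein array Slc3a2, Chac1 and Cth differed from the 4-OHT array by log2 differences of -0.04, -0.0026 and -0.28, in that order.

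Among genes that remove lipid peroxides or radicals, Gpx2, a glutathione peroxidase of epithelia, and Gch1, which starts tetrahydrobiopterin synthesis, were past 2-fold higher with 4-OHT. Gpx2 read 0.0913 with 4-OHT and vitamin E, 0.191 with 4-OHT and lutein, 0.505 with 4-OHT and 0.111 with vehicle, a difference of 2.18 for 4-OHT against vehicle and -1.41 for lutein against 4-OHT. Gch1 differed by 2.12 for 4-OHT against vehicle, and its other probe had a bound of 0.86. Coq7, an enzyme of coenzyme Q synthesis, differed by -1.01, while its other probe gave 0.41, the opposite direction. The remaining genes of these lists were short of 2-fold, and the medians were -0.38 for the 7 other glutathione peroxidases and transferases measured, Gpx2 included, and -0.30 for the 12 coenzyme Q, tetrahydrobiopterin and radical-trapping genes.

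In the 3 lists of lipid synthesis, lipid oxidation and aldehyde clearance, 1 of 38 measured genes was past 2-fold higher with 4-OHT than with vehicle and 2 lower. Over all genes the shares were 7.74% higher and 3.15% lower. Elovl2, an elongase of polyunsaturated fatty acids, differed by -1.15, Cyb5r1, of the cytochrome b5 reductase family, by 1.18, and Akr1b8, an aldo-keto reductase, by -1.19 for 4-OHT against vehicle. All 9 genes that clear lipid-derived aldehydes lay below 0 for 4-OHT against vehicle, as did 60.4% of protein-coding genes. Their median was -0.13, the same as over protein-coding genes. All 9 lay above 0 for vitamin E against 4-OHT, as did 65.8% of protein-coding genes. The median there was 0.40 against 0.17 over protein-coding genes, and both comparisons use the 4-OHT array.

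Iron and heme genes differed in both directions. Hmox1, which breaks down heme and releases iron, had a signal of 1.66 with 4-OHT and vitamin E, 8.68 with 4-OHT and lutein, 10.9 with 4-OHT and 0.990 with vehicle. It was 11.04-fold higher with 4-OHT than with vehicle, and its second probe gave a log2 difference of 2.53 against 3.47 for the first. Hpx, the heme-binding hemopexin, differed by 1.89 for 4-OHT against vehicle. Slc11a1, a divalent metal transporter of phagosomes, was 4.10-fold lower with 4-OHT than with vehicle (log2 difference -2.04). Its signals, from 1 spot per array, were low: 0.0805 with 4-OHT and 0.330 with vehicle. The lowest signal well above background on the 4-OHT array was 0.0476. Hfe, which acts with the transferrin receptors in iron sensing, was at least 3.42-fold lower with 4-OHT, where it was not well above background, than with vehicle. Trf, transferrin, read 0.529 with 4-OHT and vitamin E, 1.08 with 4-OHT and lutein, 1.08 with 4-OHT and 0.640 with vehicle, a difference of 0.75 for 4-OHT against vehicle and -1.02 for vitamin E against 4-OHT. Cp, the ferroxidase ceruloplasmin, differed by 0.29 for 4-OHT against vehicle, and Herc2, a ubiquitin ligase, by 1.02. Of 10 iron-sulphur cluster genes 9 lay below 0 for 4-OHT against vehicle, where 60.4% of protein-coding genes did, and 0 were past 2-fold. Their median was -0.46, against -0.06 over all genes and -0.13 over protein-coding genes.

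Of other regulators of ferroptosis, 4 of 18 measured were past 2-fold higher with 4-OHT than with vehicle, against 7.74% of all genes. Hspb1, a small heat shock protein, differed by 2.42 for 4-OHT against vehicle and -1.85 for vitamin E against 4-OHT. Trib3, a stress-induced pseudokinase, differed by 2.06 and -2.02, and Sesn2, a sestrin induced by stress, by 1.32 and -1.09. Gls2, a mitochondrial glutaminase, was at least 2.30-fold higher with 4-OHT than with vehicle.

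**Figure D4:**
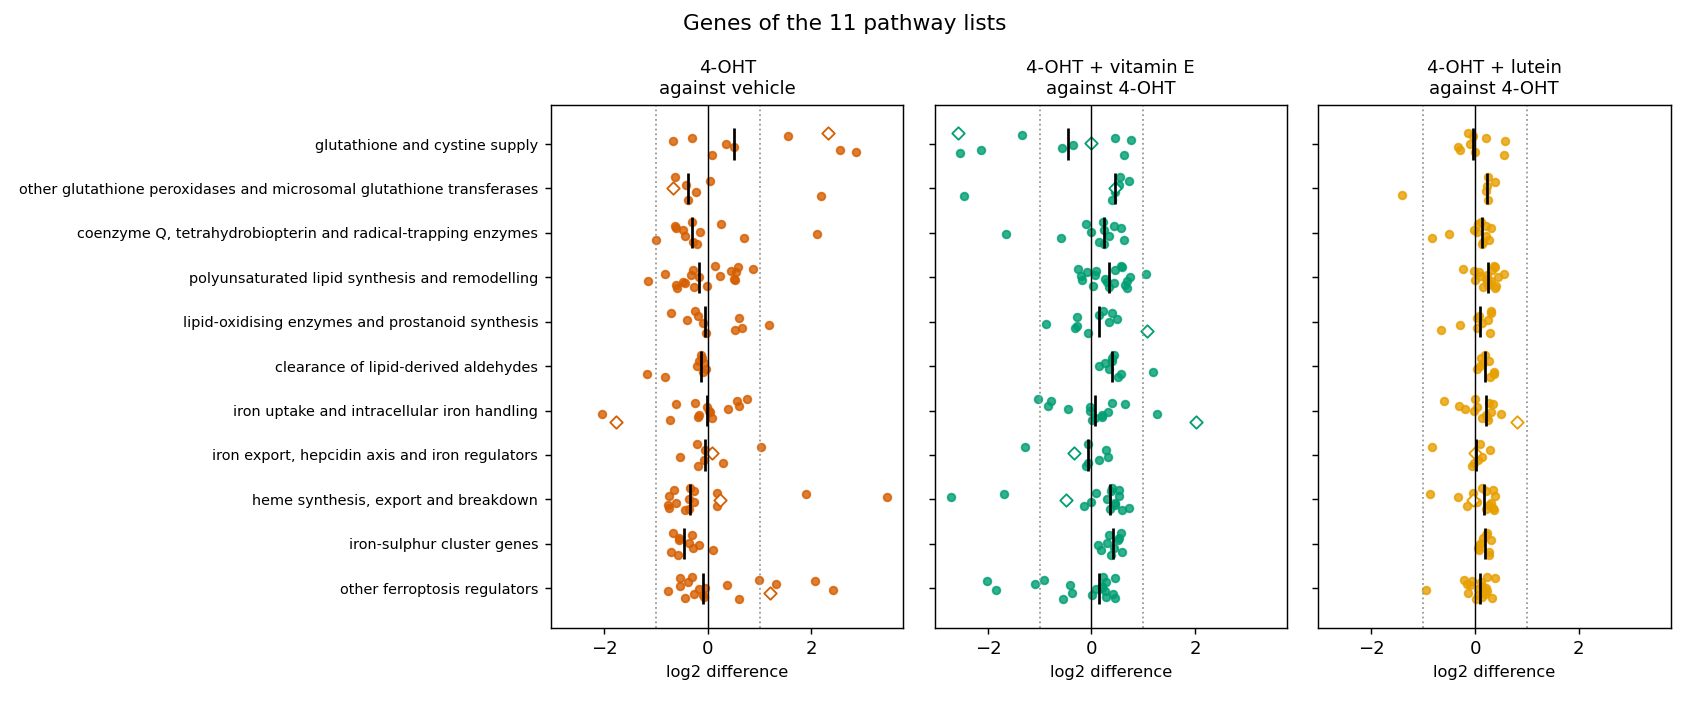
Each point is 1 gene of the 11 lists, placed by its log2 difference for 4-OHT against vehicle, 4-OHT with vitamin E against 4-OHT, and 4-OHT with lutein against 4-OHT. Open diamonds are bounds, black bars are list medians, and dotted lines mark 2-fold. The highest point in the left panel is Hmox1, at 3.47, and in the right panel 1 gene (Gpx2) lies past 2-fold.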

How the data were processed

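Per the labels, 50 ng of RNA per group was labelled with Cy3 and hybridised to 1-colour arrays. The submitters' processing notes name Agilent Feature Extraction, version 10.7.3.1. Intensities per spot, per the file headers, had the background subtracted and trends corrected before they were deposited, with no normalization between arrays and probe positions on mm9. The authors' deposited value table holds that linear signal divided by 1 number per array (434.1 to 494.2), found by comparison with the scanner values; it holds no log values and no centring by gene. Column medians were 0.0736 for 4-OHT with vitamin E, 0.0847 for 4-OHT with lutein, 0.0949 for 4-OHT and 0.0794 for vehicle. It served as an alternative. The lutein file had been saved with fewer digits and 57 altered gene names, so names came from the vehicle array.

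Control spots and outlier spots (137 to 164 per array) were left out; 0 of 59305 gene spots were saturated. After taking log2, each array's 75th percentile over gene spots was subtracted and probe means over spots were formed. A probe counted as well above background where most of its spots used did. The probe with the highest mean stood for a gene. Genes well above background on either array were compared. A dim value was replaced by the lowest detected value of its array where that was higher. All 4 arrays lay on 1 slide, where position and group cannot be told apart. The number of arrays, 1 in each group, limits the precision.

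The members, lists and alternatives were chosen with earlier results of these data known. All 10 members are named with every probe; of the list genes those past 2-fold for 4-OHT against vehicle are named (at most the 5 largest of a list), with Hmox1, Slc7a11, Trf and Cp. Steps were tested on simulated data. Normexp correction used limma 3.58.1 under R 4.3.3; all else ran in Python 3.11.15 (NumPy 2.4.6; pandas 2.3.3) with figures from matplotlib 3.10.9.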

Additional observations from a re-analysis of the deposited data

How the results depend on the processing

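The alternatives were median scaling, quantile normalization, spike-in scaling on 8 of 10 probes, normexp background correction (offset 50), averaging all probes of a gene, requiring detection on both arrays, dropping the filter, the authors' value table, and 1.5-fold and 4-fold limits. A second spike-in scaling, on the 7 probes with every spot well above background, was added after the data and the first spike-in result had been seen. Of 438 recomputed member differences, 57 moved by more than the spot SD and 381 did not, none past 2-fold reversed, and 11 with smaller values changed sign.

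For 4-OHT against vehicle, 1 member (Tfrc) was past 2-fold lower under spike-in scaling with 8 probes, and 1 with 7; the median was -0.60 with 8 probes. For vitamin E against 4-OHT, 2 members were past 2-fold higher with 8 spike-in probes and 0 with 7. The median there was 0.72 with 8 and 0.59 with 7. For lutein against 4-OHT the median was 0.41 with 8. Spike-in scaling with 8 probes moved the median of all genes by -0.25 for 4-OHT against vehicle, 0.35 for vitamin E against 4-OHT and 0.18 for lutein against 4-OHT; with 7 probes by -0.15, 0.22 and 0.11. Members past 2-fold higher numbered 0 under normexp correction and 0 under detection on both arrays, for 4-OHT and for lutein against vehicle, and 0 were lower under detection on both arrays for vitamin E against 4-OHT. In each of these Ptgs2 is the member lost. Its log2 value ranged from 0.91 to 3.79 for 4-OHT against vehicle and from -3.68 to -1.13 for vitamin E against 4-OHT. For lutein against vehicle it ranged from 0.60 to 3.19. The 0.91, -1.13 and 0.60 are bounds. The 3.79, -3.68 and 3.19 came without the filter and use signals that were not well above background. Detection on both arrays leaves it out by construction; for normexp the cause was not tested. At 1.5-fold, 2 members were higher and 2 lower for 4-OHT against vehicle, 3 higher for vitamin E and 1 lower for lutein against 4-OHT, and 2 higher and 1 lower for lutein against vehicle; at 4-fold 0 were higher in both comparisons with vehicle that had called 1.

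Over all genes, counts past the limit ranged over these alternatives from 382 to 3340 higher and 76 to 2973 lower for 4-OHT against vehicle (1708 and 695 as reported), from 33 to 1892 and 518 to 3703 for vitamin E against 4-OHT (328 and 1947), from 65 to 1341 and 50 to 2127 for lutein against 4-OHT (253 and 841), from 38 to 939 and 57 to 1557 for vitamin E against vehicle (232 and 423), and from 161 to 2103 and 47 to 1240 for lutein against vehicle (733 and 319). The higher share of counted genes was 71.1% for 4-OHT against vehicle, and 41.4% with 8 spike-in probes or 54.1% with 7. It was 14.4% for vitamin E against 4-OHT, and 52.2%, 33.7% and 30.7% (quantile). No paired analysis was possible because there was only 1 array in every group.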
